A study of Homo sapiens with 10 samples.

Results

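The estrogen receptor target genes TFF1, TFF3, GREB1, PDZK1, IGFBP4, CCND1, MYB, CA12, STC2 and AREG were chosen by name, as genes known to respond to estrogen in breast cancer cells. Of these 10 genes, 7 were among the 13920 genes with counts and are described here (GREB1, PDZK1, IGFBP4, CCND1, MYB, CA12 and STC2). TFF1, TFF3 and AREG were not among the listed genes, which all had at least 1 count in every library, and were not analysed here. RNA was sequenced from spheroids labelled T47D, a human breast cancer cell line of luminal type that is known for its estrogen and progesterone receptors. Wild-type (WT) spheroids carry no edit, whereas clones A1 and A2 (SAMHD1-KO) were edited with CRISPR-Cas9 in exon 5 of SAMHD1, an enzyme that hydrolyses dNTPs. Each clone is a single line, so what a clone carries besides the edit and the edit itself cannot be told apart. Experiments 10, 11, 15 and 16 each gave 1 WT and 1 clone A1 library, and experiments 15 and 16 also gave 1 clone A2 library each. All groups were grown as spheroids, and neither addition nor withdrawal of estrogen is described for any of them. The labels call each experiment number a replicate, and the methods describe biological duplicates, so each group of an experiment pair holds 2 libraries. The p-values rest on a spread estimated jointly over all libraries, not on that of the 2 compared groups alone.

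In breast cells, estrogen binds the receptor encoded by ESR1, which then attaches to estrogen response elements at promoters and distant enhancers. FOXA1 and GATA3 open chromatin for the receptor, and coactivators such as EP300 or corepressors such as NCOR1 set the output. The targets described here have varied roles. GREB1 is a chromatin-bound cofactor of the receptor, and PDZK1 is a scaffold for membrane transporters. IGFBP4 is a secreted protein that binds insulin-like growth factors and restrains them. STC2 is a secreted glycoprotein that inhibits PAPP-A, the protease that cleaves IGFBP4. CCND1 encodes cyclin D1, the G1 cyclin, MYB encodes a transcription factor of progenitor cells, and CA12 encodes a membrane-bound carbonic anhydrase.

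The libraries labelled T47D did not carry the marker pattern of that label, and this held in all 10 of them, so no result can be given without them. KRT19, a keratin of luminal cells, was not among the listed genes. Levels are given as CPM, the counts-per-million unit, with library sizes corrected for composition by TMM. ESR1 lay at 0.183 to 1.59 CPM (8 to 78 counts), the epithelial adhesion genes EPCAM at 0.348 to 1.78 CPM and CDH1 at 0.684 to 2.16 CPM, and the keratin gene KRT8 at 3.10 to 9.07 CPM. KRT18 (36.3 to 60.3 CPM), GATA3 (15.4 to 24.8 CPM), FOXA1 (14.1 to 26.8 CPM) and PGR (15.4 to 20.7 CPM), the progesterone receptor gene, were detected in every library. The mesenchymal gene VIM lay at 1175 to 1518 CPM, and ZEB1 at 57.6 to 70.4 CPM. Of 13 further luminal genes looked up after this was seen, 4 were listed (ESRP1, CLDN3, CLDN4 and MUC1), with median levels between 0.351 and 8.27 CPM. Also looked up after the values were seen, IRS4 lay at 1333 to 1708 CPM and the mesenchymal cadherin CDH2 at 118 to 158 CPM. Of markers of other cell types, 2 of 5 immune, 1 of 3 endothelial and 2 of 5 fibroblast genes were listed. Their summed levels were 0.759 to 1.74, 0.799 to 1.69 and 11.7 to 26.3 CPM. The cells are therefore called here by their labels only, and the values below are those of genes known as estrogen targets elsewhere, in libraries with few ESR1 reads.

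**Figure D1:**
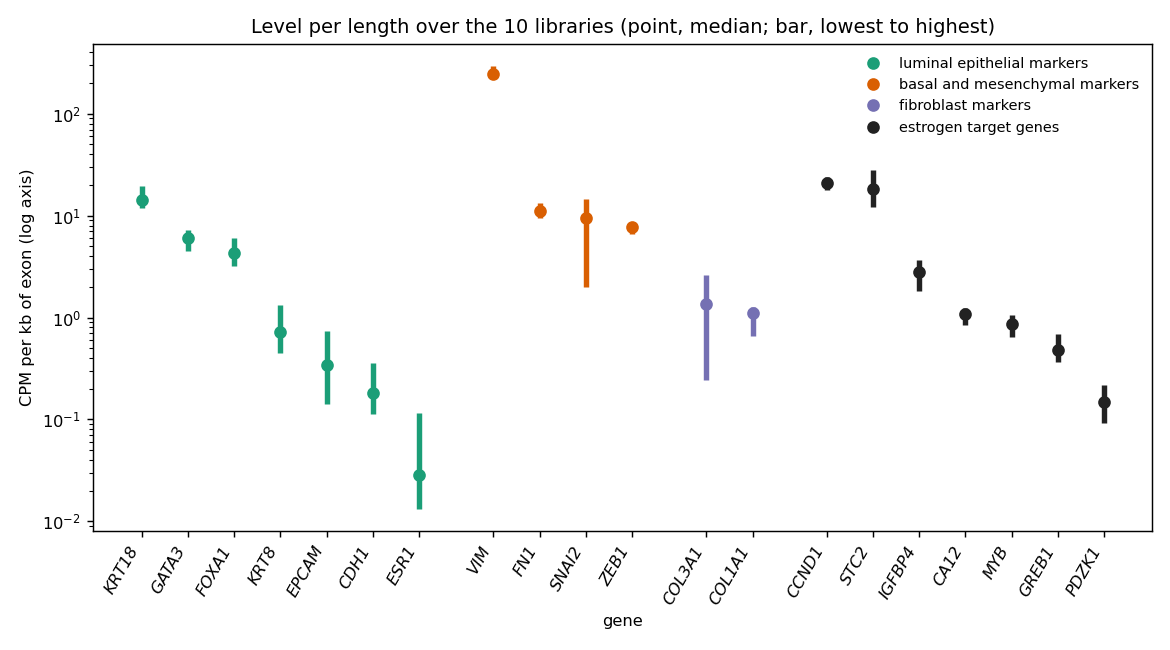
Level per length (CPM per kb of exon, log axis) of marker genes and of the 7 estrogen target genes over the 10 libraries; points are medians and bars run from the lowest to the highest library. ESR1 has a median of 0.0282 CPM per kb and VIM of 244, with CCND1 at 20.9, STC2 at 18.3 and PDZK1 at 0.149.

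SAMHD1 itself checked the genotype labels. It lay at 49.8 to 56.4 CPM in the 4 WT libraries and at 6.15 to 23.6 CPM in the 6 SAMHD1-KO libraries, with no overlap. Clone A1 held 22.5 and 23.0 CPM in experiments 10 and 11 and 6.44 and 6.15 CPM in experiments 15 and 16. Clone A2 held 23.6 and 20.2 CPM. SAMHD1 RNA was thus lower but still present, whereas the paper reports a lack of SAMHD1 mRNA in its SAMHD1-KO spheroids. Counts per gene do not show the edited sequence. Total counts ran from 40077369 to 51311482 per library, and the 7 target genes together held 0.0181% to 0.0256% of them.

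The stretch before the transcription start is shown for the 3 target genes that passed a test below and have an entry among the RefSeq promoters of GRCh38, since it is where a receptor could bind next to the gene. Entries matched 5 of the 7 genes (PDZK1, with 2 start sites, IGFBP4, MYB, CA12 and STC2). Each run holds the 250 bases before the start, 5′ to 3′ on the gene's strand, and capitals mark every motif of the search found in it. IGFBP4 is on the plus strand (chr17:40443200-40443449), with a GC box (CCGCCC) 83 bases and a TATA box (TATAAA) 29 bases before the start. CA12 is on the minus strand (chr15:63381847-63382096), with 1 GGTCA arm of the estrogen response element 196 bases before the start. STC2 is on the minus strand (chr5:173328415-173328664), with a CCAAT box (ATTGG) 100 bases before the start.
IGFBP4: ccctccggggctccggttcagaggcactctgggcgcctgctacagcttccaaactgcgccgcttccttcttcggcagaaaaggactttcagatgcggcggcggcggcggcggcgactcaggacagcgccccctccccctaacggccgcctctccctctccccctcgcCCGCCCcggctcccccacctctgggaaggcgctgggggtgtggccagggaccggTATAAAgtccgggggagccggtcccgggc
CA12: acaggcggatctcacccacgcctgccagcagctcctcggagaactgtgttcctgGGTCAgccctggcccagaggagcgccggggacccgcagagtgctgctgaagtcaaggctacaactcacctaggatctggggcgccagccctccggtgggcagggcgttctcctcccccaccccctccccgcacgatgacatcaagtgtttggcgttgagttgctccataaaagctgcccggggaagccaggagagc
STC2: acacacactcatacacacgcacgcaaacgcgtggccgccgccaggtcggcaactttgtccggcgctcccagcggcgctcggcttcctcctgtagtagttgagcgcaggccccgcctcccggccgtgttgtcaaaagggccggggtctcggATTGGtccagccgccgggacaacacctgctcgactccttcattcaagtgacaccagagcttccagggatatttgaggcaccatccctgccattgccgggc

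None of the 6 windows of the 5 genes held the palindromic estrogen response element (GGTCA and TGACC with 3 bases of any kind between them), which 14 of 35116 promoter windows (0.0399%) held. The single arm GGTCA was found in CA12 and PDZK1 and in 32.6% of all windows. A full element contains the arm on each strand, so the searches overlap. The GC box GGGCGG was found in IGFBP4 and MYB (42.6% of all windows), the forkhead motif TGTTTAC in MYB (2.98%), CCAAT in STC2 (32.0%) and TATAAA in IGFBP4 (10.7%). The AP-1 motif TGANTCA (6.57% of windows) and the CRE arm TGACG (21.2%) had no match in these 5 genes. Both strands were searched for each motif. A match describes the letters only, and enhancers lie outside these windows.

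Corrected for exon length, the 7 genes covered a wide range of levels in the 10 libraries. CCND1 stood highest, with a median of 20.9 CPM per kb (range 18.0 to 23.8), at the 86.4th percentile of the 13699 genes with an exon length. STC2 followed at 18.3 CPM per kb (12.1 to 28.0), and its range overlapped that of CCND1. IGFBP4 lay at 2.82 CPM per kb (1.81 to 3.64), CA12 at 1.07 (0.844 to 1.23), MYB at 0.873 (0.638 to 1.06) and GREB1 at 0.477 (0.367 to 0.682). CA12 and MYB overlapped each other, as did MYB and GREB1, while IGFBP4 stood apart from both neighbours. PDZK1 was lowest at 0.149 CPM per kb (0.0921 to 0.219) and rested on 10 to 25 counts per library. A near-identical pseudogene copy of PDZK1 exists, so its counts are uncertain. The ratio of the highest to the lowest library ran from 1.32 for CCND1 to 2.37 for PDZK1, and it was 8.71 for ESR1.

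**Figure D2:**
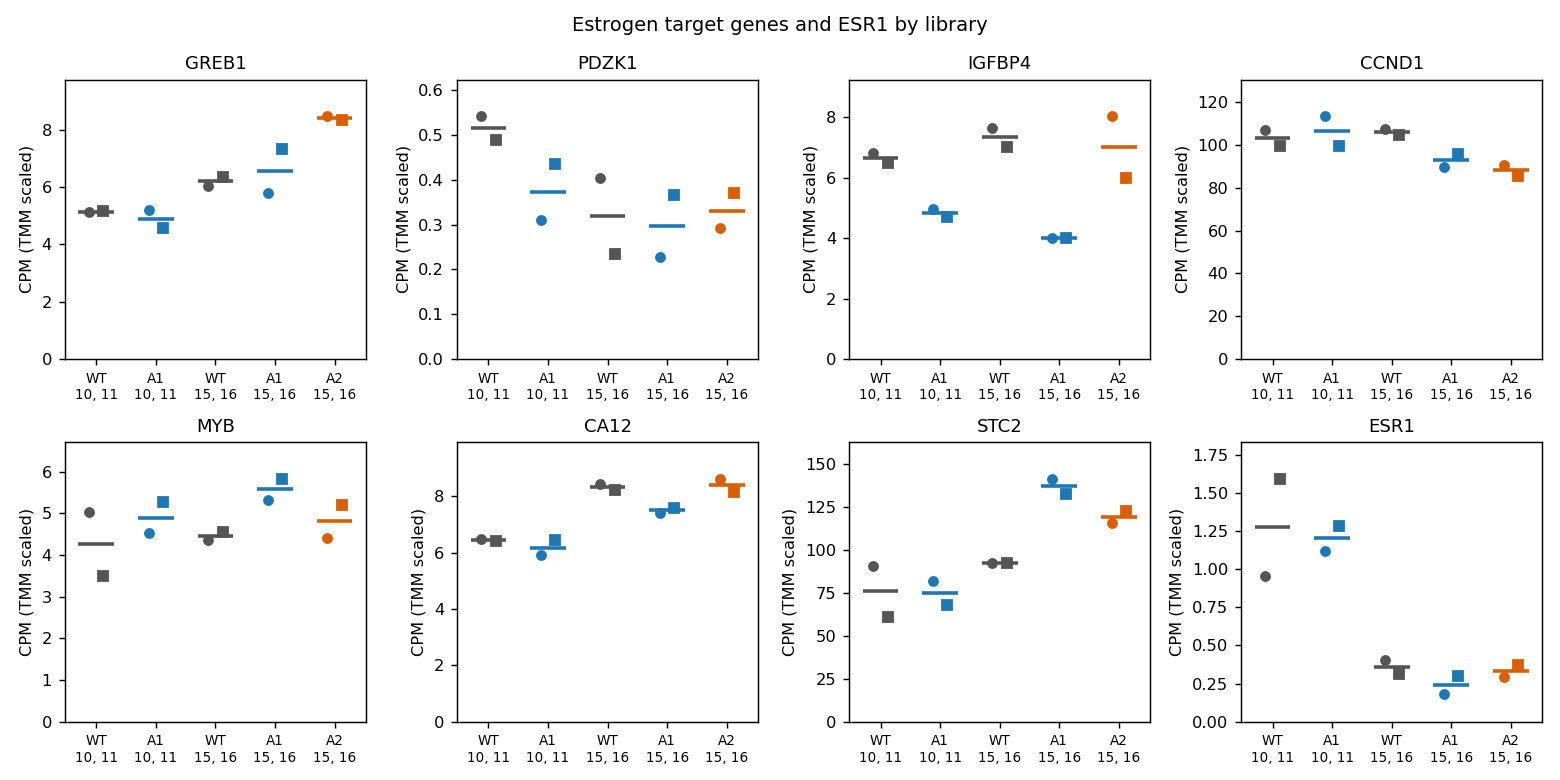
CPM of the 7 estrogen target genes and of ESR1 in each library (linear axes from 0). Circles are experiments 10 and 15, squares experiments 11 and 16, and bars the mean of the 2 libraries. IGFBP4 lies at 3.99 to 4.98 in the 4 clone A1 libraries and at 5.97 or above elsewhere, and the 4 highest STC2 values are those of the clone libraries in experiments 15 and 16.

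The first comparison asked whether the target genes differ between clone A1 and WT in experiments 15 and 16. IGFBP4 fell and STC2 rose in clone A1, and the other 5 genes did not pass the test. This was 2 of 7 genes, against 8.24% of all genes tested (adjusted p under 0.05, edgeR). The groups did not overlap for 5 of the 7 genes, against 53.8% of all genes. The median log2 fold change of the 7 genes was -0.06, beside 0.0031 over all genes. Some cell type markers differed between these groups too. Of the 7 listed luminal markers FOXA1 rose and KRT8 fell (log2 fold change -0.70, lost without any of the 4 libraries), of 4 basal and mesenchymal markers SNAI2 fell (-2.16), and of 2 fibroblast markers COL3A1 fell (-1.66) and COL1A1 did not pass (-0.10). SNAI2 and COL3A1 passed in all 11 alternatives. The fibroblast sum was 20.4 and 18.8 CPM in WT and 11.7 and 13.7 CPM in clone A1, and 0 of 2 immune and 0 of 1 endothelial markers passed. Mitochondrial genes held 10.7% and 9.92% of the counts in WT and 13.9% and 10.7% in clone A1. The part of these values in the target gene differences was not tested.

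IGFBP4 (chr17:40443450-40457725, plus strand, 4 exons) lay at 7.64 and 7.02 CPM in WT and at 4.00 and 3.99 CPM in clone A1 of experiments 15 and 16. Both clone A1 libraries were below both WT libraries, and they were nearly equal. This was a log2 fold change of -0.87 (SE 0.151, n = 2 libraries each; adjusted p = 0.00201, edgeR). IGFBP4 stayed past the threshold in all 11 alternative analyses, leaving out each library in turn included (adjusted p 7.51e-05 to 0.0302).

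STC2 (chr5:173314723-173328414, minus strand, 4 exons) lay at 92.8 and 92.4 CPM in WT and at 142 and 133 CPM in clone A1 of the same experiments. The WT pair lay within 1 CPM of each other, below both clone libraries. The fit on experiments 15 and 16 alone gave an adjusted p of 4.07e-05 (edgeR). In the fit of all libraries, whose spread also holds the other experiments, the log2 fold change was 0.57 (SE 0.149; adjusted p = 0.0419, edgeR). That call was lost when any of the 4 libraries was left out (WT or clone A1 of experiment 15 or 16, log2 fold change 0.52 to 0.61, adjusted p 0.119 to 0.217), and over all 11 alternatives the adjusted p ran from 2.19e-06 to 0.217. STC2 is also known to respond to hypoxia. Of 9 hypoxia genes 3 rose, 0 fell and 6 did not pass in clone A1, against 8.24% of all genes called in either direction. Those that rose were BNIP3 (log2 fold change 0.48), VEGFA (0.32) and SLC2A1 (0.22), with a median of 0.25 over the 9. Their summed level was 4034 and 4092 CPM in WT and 4713 and 4583 CPM in clone A1. BNIP3 was lost with DESeq2, and with a library left out 0 or 1 of the 9 genes passed, while 5 passed with the replicate block and 6 in the fit on experiments 15 and 16 alone. Of all 13920 genes, 2411 passed with the block and 1834 in that fit. The part of the hypoxia genes in the STC2 difference was not tested. In bulk RNA, fewer cells of a type and less RNA per cell cannot be told apart.

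**Figure D3:**
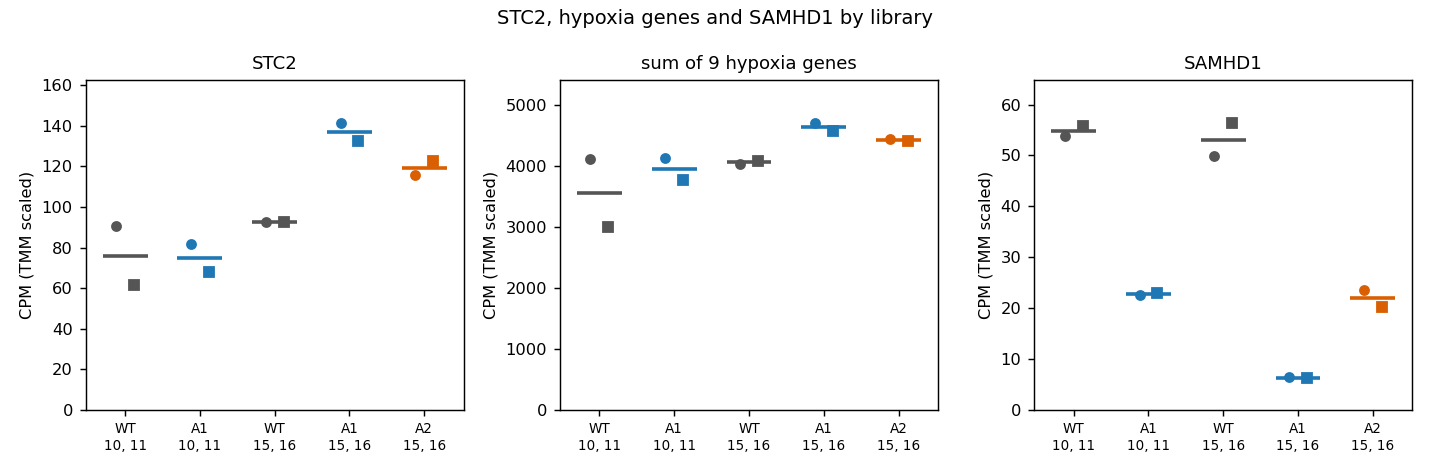
STC2, the summed level of 9 hypoxia genes and SAMHD1 in CPM by library (linear axes from 0; circles, experiments 10 and 15; squares, experiments 11 and 16; bars, mean of 2). WT of experiment 11 is the lowest library for STC2 (61.3 CPM) and for the hypoxia sum (3001 CPM), while its SAMHD1 (55.7 CPM) lies within the WT range.

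The 5 other genes had smaller or less certain differences in clone A1 of experiments 15 and 16. CCND1 (chr11:69641156-69654474, plus strand, 5 exons) lay at 107 and 105 CPM in WT and at 89.9 and 95.6 CPM in clone A1. Its groups did not overlap, with a log2 fold change of -0.19 (SE 0.0765, adjusted p = 0.142, and 0.0246 to 0.462 over the 11 alternatives). With the replicate block CCND1 passed (adjusted p 0.0246, edgeR). MYB (chr6:135181308-135219172, plus strand, 16 exons) lay at 4.36 and 4.56 CPM in WT and at 5.32 and 5.83 CPM in clone A1. Its estimate of 0.32 (SE 0.174) had an adjusted p of 0.296. CA12 (chr15:63321378-63381846, minus strand, 11 exons) lay at 8.44 and 8.23 CPM in WT and at 7.40 and 7.60 CPM in clone A1 (-0.15, SE 0.115, adjusted p = 0.484). GREB1 (chr2:11482888-11642788, plus strand, 33 exons) overlapped, with 6.05 and 6.35 CPM in WT and 5.80 and 7.34 CPM in clone A1. PDZK1 (chr1:145670852-145707400, minus strand, 9 exons) overlapped as well, at 0.403 and 0.234 CPM in WT against 0.228 and 0.367 CPM in clone A1.

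Clone A2 was set against WT in the same experiments, and here other target genes passed the test. GREB1 rose and CCND1 fell in clone A2, which was 2 of 7 genes against 16.4% of all genes tested. Groups did not overlap for 3 of the 7 genes, against 60.7% of all genes. The median log2 fold change of the 7 genes was 0.10, beside 0.0071 over all genes. Both calls were lost when any of the 4 libraries (WT or clone A2 of experiment 15 or 16) was left out. Among the markers, FOXA1 and FN1 (log2 fold change 0.45) rose, and KRT8 (-0.97), SNAI2 (-1.28) and COL3A1 (-2.16) fell, and all but FOXA1 passed in all 11 alternatives. COL1A1, the other fibroblast marker, did not pass (0.0036). The fibroblast sum was at most 13.1 CPM in clone A2, and mitochondrial genes held 10.04% and 9.05% of its counts. The part of these values was not tested either.

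GREB1 lay at 8.48 and 8.36 CPM in clone A2, above every WT library, including 5.12 and 5.16 CPM in experiments 10 and 11. Its log2 fold change from WT of experiments 15 and 16 was 0.44 (SE 0.136), with an adjusted p of 0.0359 from edgeR and of 0.0137 to 0.194 over the 11 alternatives. CCND1 lay at 90.8 and 85.7 CPM in clone A2, below both WT libraries. Its log2 fold change was -0.26 (SE 0.0765), with an adjusted p of 0.0266 and of 0.00153 to 0.213 over the alternatives. Of 10 proliferation genes 2 passed in clone A2, against 16.4% of all genes, a share near the background. PLK1 rose and CCNB1 fell, and 7 of the 11 alternatives kept the call of each. The other 8 passed in neither direction.

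STC2 lay at 116 and 123 CPM in clone A2, above both WT libraries and below both clone A1 libraries. Its log2 fold change from WT was 0.37 (SE 0.149), which did not pass (adjusted p = 0.127 from edgeR). It passed when the fit held only experiments 15 and 16 (adjusted p 0.000635), and over the 11 alternatives the adjusted p ran from 0.000188 to 0.416. With the replicate block STC2 passed as well (adjusted p 0.000188, edgeR). The hypoxia sum was 4439 and 4415 CPM in clone A2, and 1 of the 9 genes rose (SLC2A1, log2 fold change 0.31), against 16.4% of all genes. Of the 9, 6 passed in the fit on experiments 15 and 16 alone and 4 with the replicate block, which called 3673 of all 13920 genes. Of 8 targets of the stress factor ATF4, DDIT3 (log2 fold change 0.35) and SESN2 (0.33) rose in clone A2, against 16.4% of all genes. Of the 11 alternatives 7 kept the call of each. In clone A1 of experiments 15 and 16, edgeR called 0 of the 8 and DESeq2 called 1. The part of these genes in the STC2 values was not tested. IGFBP4 lay at 8.03 and 5.97 CPM in clone A2, on either side of the WT libraries (log2 fold change -0.07, SE 0.144). MYB (4.42 and 5.21 CPM), CA12 (8.61 and 8.14 CPM) and PDZK1 (0.292 and 0.371 CPM) overlapped WT.

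The clones were also compared with each other in experiments 15 and 16. IGFBP4 was the gene that differed, 1 of 7 against 4.14% of all genes. Groups did not overlap for 5 of the 7 genes, against 48.6% of all genes. IGFBP4 was higher in clone A2 by 0.81 on the log2 scale (SE 0.151), with an adjusted p of 0.00353 from edgeR. Without clone A2 of experiment 15, which held the higher value, the difference was 0.58 and did not pass (adjusted p = 0.0963, the highest of the 11 alternatives, which began at 0.000341). GREB1 was higher in clone A2 by 0.36 (SE 0.136, adjusted p = 0.187), and STC2 was lower by an estimate of -0.20 (SE 0.148, adjusted p = 0.568). The estimates for CCND1 (-0.07), MYB (-0.21), CA12 (0.16) and PDZK1 (0.16) were within 2 SE of 0. Of the markers, SNAI2 was higher in clone A2 than in clone A1 (0.89, passing in all alternatives). The 3 comparisons share libraries, so their values are not independent of each other.

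**Figure D4:**
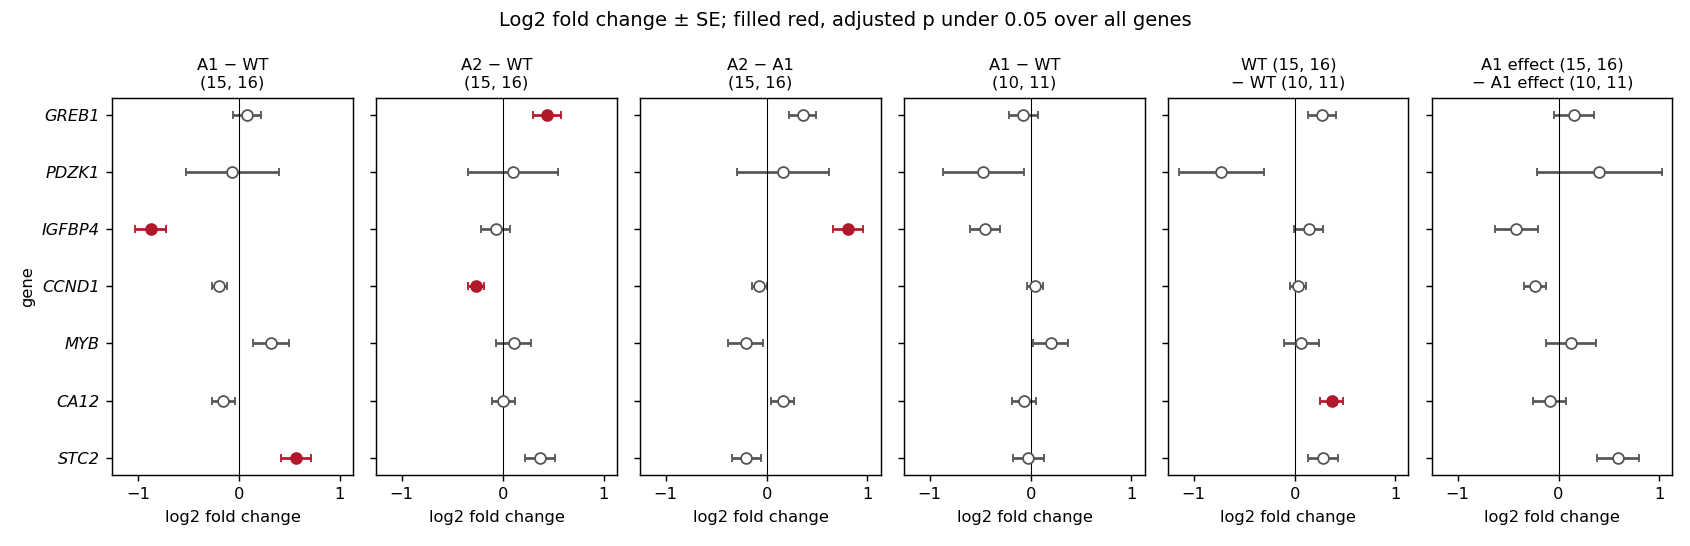
Log2 fold change of each target gene with its SE (bars) in the 6 comparisons; filled red points have an adjusted p under 0.05 over all genes. IGFBP4 is lower in clone A1 than in WT in both experiment pairs (-0.87 and -0.46) and past the threshold in experiments 15 and 16 only; the difference between those effects was not past the threshold (adjusted p = 0.36).

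Clone A1 and WT were compared once more in experiments 10 and 11. edgeR called 0 of the 7 genes there, against 0.194% of all genes, with 1 gene at an unadjusted p under 0.05 (10.6% of all genes). DESeq2 and limma-trend called 0 as well. That gene was IGFBP4, at 6.81 and 6.47 CPM in WT and at 4.98 and 4.70 CPM in clone A1. Both clone libraries were below both WT libraries, with a log2 fold change of -0.46 (SE 0.148, adjusted p = 0.333 by edgeR). Groups did not overlap for 2 of the 7 genes, against 38.3% of all genes. IGFBP4 was thus lower in each of the 4 clone A1 libraries than in the 4 WT libraries and the 2 clone A2 libraries. Of the listed markers KRT8 alone passed (log2 fold change -0.94, lost without either clone A1 library), and the fibroblast sum was 25.8 and 26.3 CPM in WT and 18.6 CPM in both clone A1 libraries.

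The other 6 genes had an unadjusted p above 0.05 between clone A1 and WT in experiments 10 and 11. STC2 lay at 90.8 and 61.3 CPM in WT and at 82.0 and 67.7 CPM in clone A1, so that the WT libraries lay on both sides of the clone (log2 fold change -0.02, SE 0.150). Its estimate was 0.28 without WT of experiment 10 and -0.28 without WT of experiment 11. CCND1 lay at 107 and 99.6 CPM in WT and at 113 and 99.6 CPM in clone A1. GREB1 (5.20 and 4.57 CPM in clone A1), CA12 (6.49 and 6.43 CPM in WT, 5.91 and 6.44 CPM in clone A1) and MYB (5.03 and 3.51 CPM in WT, 4.52 and 5.26 CPM in clone A1) overlapped. PDZK1 lay at 0.542 and 0.490 CPM in WT and at 0.311 and 0.435 CPM in clone A1, with no overlap and an estimate of -0.47 that was imprecise (SE 0.402).

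Whether the clone A1 effect differed between the experiment pairs was tested as an interaction. edgeR called 0 of the 7 genes, against 2.50% of all genes, and 2 had an unadjusted p under 0.05 (15.5% of all genes). DESeq2 and limma-trend called 0. The difference of the effects was 0.59 for STC2 (SE 0.211, adjusted p = 0.203 by edgeR) and -0.23 for CCND1 (SE 0.108, adjusted p = 0.307). Over the 14 alternatives the adjusted p for STC2 ran from 0.00021 to 0.470, and the lowest came without WT of experiment 11. For IGFBP4 the difference was -0.42 (SE 0.212, adjusted p = 0.36). GREB1 (0.15), MYB (0.12), CA12 (-0.09) and PDZK1 (0.41) had estimates within 1 SE of 0. Of the listed cell type markers SNAI2 (-2.23) and COL3A1 (-1.24) passed, both in all 14 alternatives. COL1A1 had an estimate of the opposite sign (0.51, adjusted p = 0.249 by edgeR, unadjusted p = 0.0281). The part of these markers in the target gene values was not tested.

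The level of the target genes in unedited cells was compared between the experiment pairs. CA12 was higher in WT of experiments 15 and 16 than in WT of experiments 10 and 11, and the other 6 genes did not pass. This was 1 of 7 genes, against 16.4% of all genes, and groups did not overlap for 5 of 7 genes, against 55.5%. CA12 lay at 6.49 and 6.43 CPM in experiments 10 and 11 and at 8.44 and 8.23 CPM in experiments 15 and 16. This was a log2 fold change of 0.37 (SE 0.116; adjusted p = 0.0390, edgeR). DESeq2 gave 0.36 with an adjusted p of 0.0672, and the call was also lost in the fit on WT alone (0.111) and without any of the 4 WT libraries, with a range of 0.0224 to 0.169 over the 11 alternatives. The markers that passed included SNAI2 (-0.50) and COL3A1 (-0.87), both lower in experiments 15 and 16 in all alternatives. Mitochondrial genes held 7.79% and 8.41% of the WT counts in experiments 10 and 11 and 10.7% and 9.92% in experiments 15 and 16, and their part was not tested. The experiment pair and whatever was done differently in it cannot be told apart.

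STC2, GREB1 and IGFBP4 had higher means in WT of experiments 15 and 16, without passing the test (log2 fold changes 0.28, 0.27 and 0.14). For STC2 the difference rested on WT of experiment 11. Without that library it was 0.03, and without WT of experiment 10 it was 0.59 and passed. CCND1 (0.04, SE 0.0763) and MYB (0.07, SE 0.176) were close to 0, and PDZK1 was at -0.72 (SE 0.418). WT of experiment 11 was also lowest in the summed hypoxia genes (3001 CPM against 4034 to 4123 CPM in the other WT libraries) and in MYB.

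ESR1 moved further between the experiment pairs than any of the 7 target genes. It lay at 0.954 and 1.59 CPM in WT of experiments 10 and 11 and at 0.403 and 0.312 CPM in WT of experiments 15 and 16. The libraries of the pairs did not overlap in clone A1 either, at 1.12 and 1.28 CPM and then 0.183 and 0.298 CPM. The log2 fold change in WT was -1.84 (SE 0.361), with an adjusted p of 0.00291 from edgeR, and it passed in all 11 alternatives (highest adjusted p 0.0499). These values rest on 44 to 78 counts per library in experiments 10 and 11 and 8 to 19 in experiments 15 and 16. Between clone and WT, ESR1 was not called by edgeR in any comparison or alternative (log2 fold changes -0.55 and -0.08 for clones A1 and A2 in experiments 15 and 16 and -0.09 for clone A1 in experiments 10 and 11, adjusted p 0.545 to 0.926).

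The partners of the receptor were read from a list of 17 genes for receptors, pioneer factors and coregulators. In clone A1 of experiments 15 and 16, FOXA1 rose (26.8 and 26.3 CPM against 19.0 and 19.4 CPM in WT, log2 fold change 0.47, SE 0.0879, adjusted p = 0.00363) and the other 16 did not pass. That was 1 of 17 genes, against 8.24% of all genes called. FOXA1 passed in all 11 alternatives there. In clone A2, FOXA1 (0.32) and the coactivator CREBBP (0.36) rose, and TFAP2C (-0.76), a luminal transcription factor, and the coactivator EP300 (-0.44) fell. That was 4 of 17 genes, against 16.4% of all genes. The FOXA1 call in clone A2 was lost without any of the 4 libraries and the CREBBP call without 3 of them (WT of experiment 15, WT of experiment 16 or clone A2 of experiment 15), while TFAP2C and EP300 passed in all alternatives. Against clone A1, TFAP2C (-0.50) and EP300 (-0.44) were lower in clone A2 too, the former lost without experiment 15 of either clone and the latter without 3 of the 4 libraries (clone A1 of experiment 16 or either clone A2 library). Between the clones 2 of the 17 genes passed, against 4.14% of all genes. In WT between the pairs 6 of the 17 passed, against 16.4% of all genes. There FOXA1 rose (0.34) and the genes that were lower in experiments 15 and 16 included ESR1, EP300 (-0.50), NCOA1 (-0.23) and NCOR1 (-0.21). Of these, ESR1 and EP300 passed in all alternatives. FOXA1, NCOA1 and NCOR1 were each lost in the fit on WT alone and without 3 of the 4 WT libraries. Clone A1 in experiments 10 and 11 gave 0 calls of 17 by edgeR (0.194% of all genes), DESeq2 and limma-trend. Of the 17, 1 had an unadjusted p under 0.05 by edgeR (10.6% of all genes). GATA3 was not called by edgeR in any comparison, with log2 fold changes of -0.25 to -0.04 (in clone A2 it passed without clone A2 of experiment 15 and with the replicate block), and PGR lay between -0.23 and 0.14.

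A wider list of estrogen-induced genes was read in the same comparisons. Of 25 listed genes (of 30 named), 3 rose and 0 fell in clone A1 of experiments 15 and 16, against 8.24% of all genes called in either direction. Their median log2 fold change was 0.02. These were GFRA1 (0.69), a receptor subunit for GDNF, ABCA3 (0.56), a lipid transporter, and XBP1 (0.28), a factor of the unfolded protein response. GFRA1 and ABCA3 passed in all 11 alternatives, and XBP1 was lost without any of the 4 libraries. In clone A2 4 of 25 passed, against 16.4% of all genes, a share near the background. ABCA3 (0.44) and GFRA1 (0.39) rose and the adenosine receptor gene ADORA1 (-0.99) and XBP1 (-0.28) fell, with a median of 0.0021. ABCA3 passed in all alternatives there. ADORA1 was lost without any of the 4 libraries and GFRA1 and XBP1 without 3 of them, in each case WT of experiment 15, WT of experiment 16 and 1 clone A2 library (experiment 16 for GFRA1, experiment 15 for XBP1). Between the clones, XBP1 (-0.56) and the chemokine gene CXCL12 (-0.71) were lower in clone A2, and CXCL12 was lost without any of the 4 libraries. That was 2 of 25 genes, against 4.14% of all genes. For clone A1 in experiments 10 and 11, edgeR called 0.194% of all genes, and 10.6% had an unadjusted p under 0.05. In experiments 10 and 11, 0 of 25 passed by edgeR, DESeq2 or limma-trend, with 3 at an unadjusted p under 0.05, and 3 passed when WT of experiment 10 was left out. Without that library, which leaves WT of experiment 11 alone, 5 of the 9 hypoxia genes passed as well, and the genes called overall rose from 27 to 1361 of 13920.

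**Figure D5:**
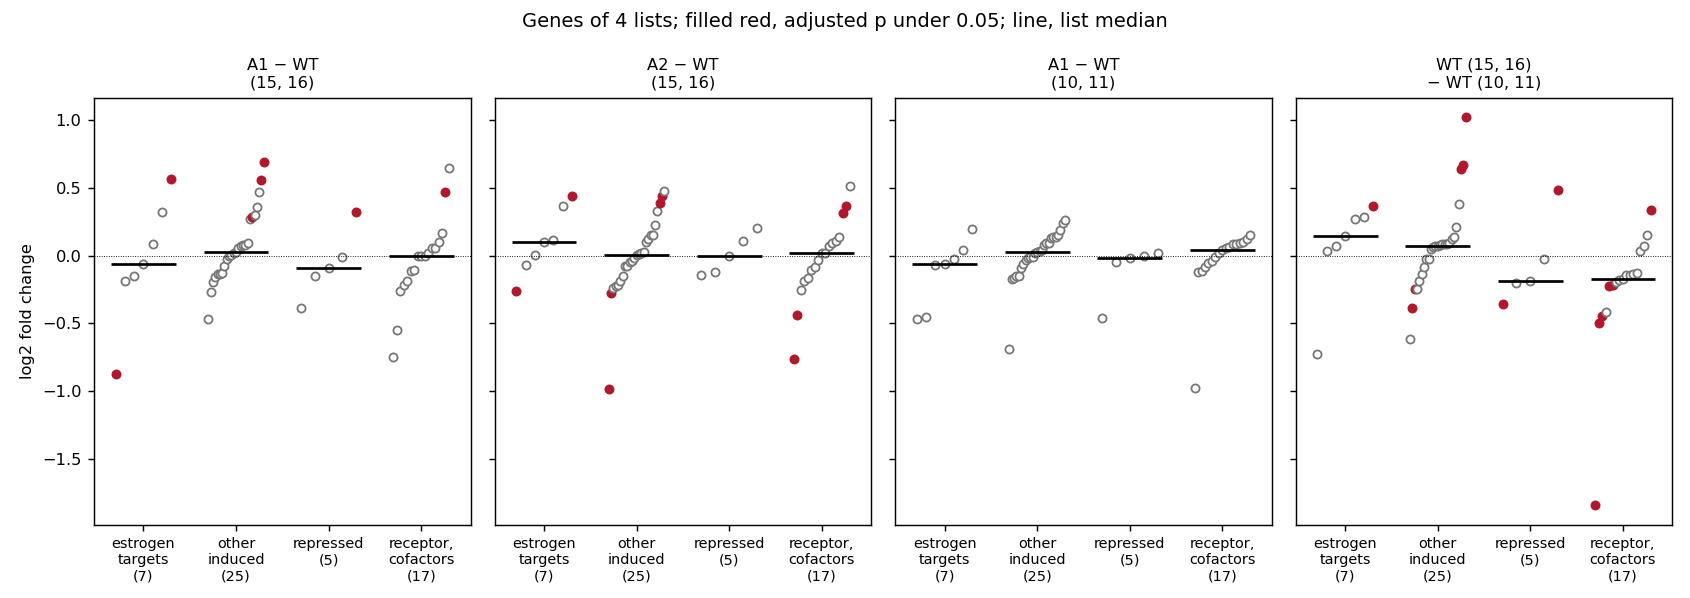
Log2 fold change of the 7 target genes, 25 other estrogen-induced genes, 5 estrogen-repressed genes and 17 genes for receptors and cofactors in 4 comparisons; filled red, adjusted p under 0.05; line, list median. Red points stand on both sides of 0, and the comparison of clone A1 with WT in experiments 10 and 11 has none.

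The clone A1 effect itself differed between the pairs for 3 of the 25 genes, against 2.50% of all genes. XBP1 was not among them. ABCA3 lay at 42.9 and 41.7 CPM in clone A1 of experiments 10 and 11, below 47.3 and 43.0 CPM in WT, and at 65.3 and 76.0 CPM in experiments 15 and 16, above 46.9 and 48.9 CPM in WT. Its difference of effects was 0.65 (SE 0.116, adjusted p = 0.00701, all 14 alternatives passing). GFRA1 (0.72) and CXCL12 (1.16) differed as well, and each was lost without 5 of the 8 libraries. In WT alone 5 of 25 passed, against 16.4% of all genes. CXCL12 (1.02), GFRA1 (0.67) and the immediate-early gene EGR3 (0.64) were higher in experiments 15 and 16, and the receptor corepressor gene NRIP1 (-0.39) and CELSR2 (-0.25) were lower. CXCL12 and GFRA1 passed in all alternatives, EGR3 was lost without any 1 of the WT libraries, with DESeq2 and in the fit on WT alone, NRIP1 was lost without WT of experiment 15 or 16, and CELSR2 without WT of experiment 11, 15 or 16 and in the fit on WT alone.

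Genes known to be repressed by estrogen were few. Of 5, CCNG2, a cyclin G gene, rose in clone A1 of experiments 15 and 16 (log2 fold change 0.32, adjusted p = 0.0137, lost without any of the 4 libraries) and was higher in WT of those experiments (0.48, passing in all alternatives). BMF, a proapoptotic gene, was lower in WT of experiments 15 and 16 (-0.36), which was lost without WT of experiment 11, 15 or 16 and in the fit on WT alone. In clone A2 against WT, 0 of 5 passed by edgeR, DESeq2 or limma-trend, and 0 had an unadjusted p under 0.05. Over all genes, edgeR called 8.24% in clone A1 of experiments 15 and 16, and 16.4% each in clone A2 and in WT between the pairs.

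Family relatives of the target genes were examined to see whether they moved with them. Of 15 listed relatives, IGFBP2, another binding protein for insulin-like growth factors, rose in clone A1 of experiments 15 and 16 (log2 fold change 0.32, adjusted p = 0.0303), where IGFBP4 fell. IGFBP2 was 1 of 15 genes called, against 8.24% of all genes, and its call was lost without any of the 4 libraries. The carbonic anhydrase gene CA2 fell in clone A2 (87.0 and 82.4 CPM against 158 and 158 CPM in WT, log2 fold change -0.90) and was lower there than in clone A1 (-0.66), passing in all alternatives, while CA12 passed in neither comparison. EGF, a relative of AREG, fell in clone A2 (-1.38, 0.314 and 0.469 CPM against 0.807 and 1.23 CPM), which was lost with DESeq2 and without WT of experiment 16 or clone A2 of experiment 15. In clone A2, 2 of the 15 passed against WT (16.4% of all genes) and 1 against clone A1 (4.14%). STC1, the paralog of STC2, was not called by edgeR, DESeq2 or limma-trend in any of the 6 comparisons with all libraries. It passed for clone A1 in the fit on experiments 15 and 16 alone (adjusted p 0.00403), and when a WT library was left out in 3 others (experiment 10 for clone A1 of experiments 10 and 11 and for WT between the pairs, experiment 11 for the difference of effects). It lay at 52.7 and 55.0 CPM in WT and at 65.8 and 68.5 CPM in clone A1 of experiments 15 and 16, and WT of experiment 11 was its lowest library too, at 39.9 CPM. In WT between the pairs, 5 of the 15 passed, against 16.4% of all genes. BTC (1.59), IGFBP2 (0.36) and CCND2 (0.26) were higher and IGFBP5 (-0.40) and MYBL2 (-0.31) lower in experiments 15 and 16. BTC passed in all alternatives, and the others were lost without 1 to 3 of the 4 WT libraries, and CCND2 also in the fit on WT alone.

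For each target gene the genes with the most similar pattern were found by Pearson's r of log2 CPM over the 10 libraries. The values are a description, since the libraries share experiment pairs and the best of 13920 genes is high by selection. STC2 was most like CACNA2D3 (0.980) and TSPAN7 (0.977), and GREB1 was most like NOMO2 (0.976), which has near-identical copies, and USP10 (0.968). CA12 was most like CA13 (0.968), another carbonic anhydrase gene, and PCDHB15 (0.963). MYB was most like TLCD4 (0.969) and DNAJC18 (0.940), and CCND1 was most like FRA10AC1 (0.963) and CACYBP (0.949). IGFBP4 was most like TAP2 (0.934) and PLIN2 (0.895), and PDZK1 was most like ZNF516 (0.877) and CTIF (0.844). None of these nearest genes was another of the 7 targets.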

How the data were processed

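Stranded mRNA libraries of spheroids were sequenced by the authors, reads were aligned to GRCh38 with HISAT2 (StringTie is also named in the submitters' processing notes), and the deposited values are raw read counts per NCBI gene identifier, from which the authors removed genes with a count of 0. The counting program and its strand setting are not given in the sources used here, so reads from overlapping antisense genes cannot be told apart. The labels name the Maxwell kit for RNA extraction and the methods the NucleoSpin kit. Library totals (40077369 to 51311482) limit the precision of genes with few counts, PDZK1 and ESR1 among them. Mitochondrial genes held 7.79% to 13.9% of the counts. None of the 45 pairs of libraries was a duplicate, since their counts differed beyond sampling noise (chi-square divided by its degrees of freedom, 6.74 to 149.8).

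Counts of all 13920 genes, of which 13885 had a symbol, entered a robust quasi-likelihood F-test with TMM scaling (edgeR 4.0.16 under R 4.3.3). One fit held 5 means (WT and A1 of experiments 10 and 11, and WT, A1 and A2 of experiments 15 and 16), so that all libraries share an estimate of the spread. The study joins the clones in 1 KO group, whereas here they are compared singly. Benjamini-Hochberg adjustment covered all genes tested, a call needed an adjusted p under 0.05, and the SE is the log2 fold change divided by the square root of F. Alternatives were DESeq2 1.42.0, limma-trend (limma 3.58.1), RLE scaling, filterByExpr (13868 genes kept), a mean count of at least 10 (13808 kept), a replicate block on the experiment number, the compared libraries alone, and each library left out in turn. The methods were tested on simulated counts with 200 genes changed, split evenly between 2-fold and 1.5-fold. For clone A1 against WT, edgeR found 98 of the former and 68 of the latter, with 3 false calls. For the difference of effects it found 84 and 15, with 10 false calls, so small changes are mostly missed there. The simulation gave all genes 1 spread and no difference between experiments, unlike these data. Log2 CPM for the similarity of patterns used a prior count of 2, and levels per length used the union of exons.

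The target genes, the other lists and the tests were chosen with earlier results of these data known. Named genes are each target gene present in each comparison, always SAMHD1, ESR1, PGR, FOXA1 and GATA3, and from each other list at most 4 genes a comparison that passed, with the largest change. Named after their values were seen were the further luminal genes with IRS4 and CDH2, and list genes beyond that number or not past the threshold (STC1, NCOA1, NCOR1, CELSR2, CCND2, COL1A1). A gene of the receptor and coregulator list, counted in its totals, is not reported by name here. Markers of luminal, basal, immune, endothelial and fibroblast cells checked the labelled cell line.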

Additional observations from a re-analysis of the deposited data

Results flagged for a closer look

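Over 12 genes (the 7 estrogen target genes, SAMHD1, ESR1, PGR, FOXA1 and GATA3) in the 4 WT and the 4 clone A1 libraries, 24 groups were searched for a library far from the rest, and chance would flag about 1 in 20 of such groups. WT of experiment 11 stood apart in STC2, at 61.3 CPM against 90.8 to 92.8 CPM in the other WT libraries, and in GATA3, at 24.8 CPM against 20.6 to 20.9 CPM. The same library was lowest among WT for the summed 9 hypoxia genes and for the summed 8 ATF4 targets, at 551 CPM. Of these targets, ASNS was lowest among WT there (121 CPM), whereas SESN2 was highest (86.4 CPM).

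The clone A1 effect differed between the experiment pairs for 6 of the genes named, by the interaction term with edgeR. The difference of effects was -1.81 for SAMHD1, 1.16 for CXCL12 (adjusted p = 0.0209), 0.65 for ABCA3 (adjusted p = 0.00701) and 0.72 for GFRA1 (adjusted p = 0.0178). Of the cell type markers, it was -2.23 for SNAI2 (adjusted p = 3.66e-08) and -1.24 for COL3A1 (adjusted p = 0.00387). SAMHD1 in clone A1 lay at 22.5 and 23.0 CPM in experiments 10 and 11 and at 6.44 and 6.15 CPM in experiments 15 and 16.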

How the results depend on the processing

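Over 483 refits of the 7 genes in the 6 comparisons, 436 kept the direction and side of the threshold, 19 lost a call, 7 gained one and 21 changed sign, all of the last with a library left out and without a call. In WT between the experiment pairs, 0 target genes were called with DESeq2, 0 in the fit on WT alone and 2 with the replicate block (CA12 and STC2).

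With a library left out, the number of target genes called was 1 in each fit for clone A1 and 0 in each for clone A2 (experiments 15 and 16), 0 to 1 for clone A2 against clone A1, 0 in each for clone A1 of experiments 10 and 11, 0 to 1 for WT between the pairs, and 0 to 1 for the difference of the clone A1 effects. The log2 fold changes that changed sign ran as follows. For clone A1 in experiments 15 and 16, GREB1 ran from -0.10 to 0.24 and PDZK1 from -0.44 to 0.35. For clone A2, PDZK1 ran from -0.27 to 0.50, IGFBP4 from -0.29 to 0.14, MYB from -0.013 to 0.22 and CA12 from -0.033 to 0.050. For clone A2 against clone A1, PDZK1 ran from -0.14 to 0.54. For clone A1 in experiments 10 and 11, GREB1 ran from -0.17 to 0.018, CCND1 from -0.054 to 0.13, MYB from -0.042 to 0.47 and STC2 from -0.28 to 0.28. For WT between the pairs, CCND1 ran from -0.018 to 0.084 and MYB from -0.17 to 0.34. For the difference of effects, GREB1 ran from -0.025 to 0.32 and MYB from -0.15 to 0.36. A mean with 1 library left is assumed to vary like the others, and these fits hold fewer samples.

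Deviations from the group means correlated at 0.0844 between WT and clone A1 of experiments 10 and 11 and at 0.103 to 0.151 in experiments 15 and 16, not above 0.1 in every pair. The labels describe the experiment number as a replicate and state no shared batch or day, so the main fit did not use it as a pairing. WT and clone libraries share the numbers, and each of these correlations was positive. The experiment number may therefore be a pairing that the main fit ignores. As a replicate block it raised the genes called overall from 1147 to 2411 (clone A1, experiments 15 and 16), 2283 to 3673 (clone A2), 576 to 1213 (clone A2 against clone A1), 27 to 382 (clone A1, experiments 10 and 11), 2276 to 4039 (WT) and 348 to 1247 (difference of effects). Under the block, CCND1 also passed in clone A1 (adjusted p = 0.0246, edgeR) and STC2 in clone A2 (0.000188) of experiments 15 and 16, and 1 target gene (STC2, 0.000391) differed in the clone A1 effect.

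Counts over all genes also moved with the compared libraries alone (1834 for clone A1 of experiments 15 and 16, 12 for experiments 10 and 11, 1208 for WT) and with DESeq2 (63 for experiments 10 and 11, 533 for the difference of effects). With a library left out they ran from 343 to 495, 1020 to 1315, 268 to 391, 7 to 1361, 820 to 3658 and 88 to 1123 in the same order of comparisons as above. The causes were not tested. Depth limits PDZK1 and ESR1, whose lowest counts were 10 and 8.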
